A study of Mus musculus with 16 samples.

Results

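Immunoglobulin genes are described here in RNA of sorted natural killer (NK) cells of the mouse. The 149 genes comprise 12 of 13 constant region genes and 137 of 218 variable (V) region genes of a table with 49671 genes. They were chosen by their annotation as an immunoglobulin constant or V gene and by a total of at least 10 counts summed over the 16 libraries, and no test is made on that total. Among the V genes 53 of 113 heavy chain rows, 80 of 100 kappa rows and 3 of 3 lambda rows entered, together with the unnamed segment Gm42543. Just inside the limit stood Ighv1-59, Ighv5-15 and Igkv4-51 with 10 counts each, and just outside stood Ighv1-84, Ighv15-2, Ighv9-1 and Igkv11-125 with 9 counts each. Of the V rows that did not enter, 52 had 1 to 9 counts and 29 had none. The lambda constant gene Iglc4 had no count in any library.

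An antibody joins a pair of heavy chains to a pair of light chains. Developing B cells assemble the variable part of each chain by joining gene segments, and the V segment is the longest of them. A naive B cell makes IgM and IgD from the constant genes Ighm and Ighd. After activation it may switch to IgG, IgE or IgA by joining the same variable part to a downstream constant gene. Plasma cells secrete antibody and carry very high levels of heavy and light chain RNA, with Jchain, which links IgM or IgA units into polymers. Constant genes of the heavy chain can also be transcribed without a joined V segment, as germline or sterile transcripts, and counts per gene do not separate these from mature transcripts. NK cells are innate lymphocytes that do not produce antibody.

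The 16 libraries form 4 groups of n = 4: lung DT, lung PBS, LN DT and LN PBS, where LN is the axillary lymph node draining the tumour. All mice were FVB/N Cdh1F/F;Trp53F/F;Foxp3GFP-DTR animals with an orthotopically transplanted KEP mammary tumour of 100 mm2, so the controls carry the same alleles and tumour. The Foxp3GFP-DTR allele puts the receptor of diphtheria toxin (DT) on cells that express Foxp3, chiefly regulatory T cells. The tested animals received 25 ug of DT at T=0 and T=7 (the time unit is not given in the sources used here), and the controls received PBS at the same times. The labels give no Cre driver and no age. Between 5000 and 10000 live CD45+ CD3- NKp46+ DX5+ cells were sorted per sample, from lungs digested with an enzyme and cleared of erythrocytes or from undigested nodes. Smart-seq2 libraries were made from their RNA, a full-length method without molecular identifiers that does not mark the strand. In bulk RNA of this kind fewer cells of a type and less RNA per cell cannot be told apart.

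Libraries held 3929560 to 10744934 counts, both extremes being lung PBS (replicates 2 and 1). Ncr1, which encodes the NKp46 of the gate, was high in all 16 libraries, from 2457 CPM in lung DT replicate 3 to 7917 CPM in LN DT replicate 1. CPM are counts brought to a TMM-scaled library size of 1000000. Mitochondrially encoded genes held 4.93%, 4.18%, 4.01% and 1.24% of counts in LN DT replicates 1 to 4, against 1.05% to 1.68% in LN PBS, so that replicate 4 lay within the LN PBS range and the others above it. In lung the share was 3.11% to 4.40% with DT and 0.951% to 2.57% with PBS, which do not overlap.

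Immunoglobulin RNA was scarce in every library. The 149 genes held 0.140%, 0.351%, 0.432% and 0.0950% of all counts in LN DT replicates 1 to 4, and 0.0788%, 0.0638%, 0.117% and 0.0860% in LN PBS replicates 1 to 4. In lung they held 0.0236%, 0.0228%, 0.0550% and 0.00590% with DT, and 0.0125%, 0.0331%, 0.0103% and 0.0127% with PBS. Every one of the 149 genes had a count in LN DT, while 50 had none in LN PBS, 77 none in lung DT and 76 none in lung PBS. The selection by total count leans on LN DT, which supplied 73339 counts of the genes, against 28255 in LN PBS, 7997 in lung DT and 4618 in lung PBS. Lists of genes with no count therefore partly restate the selection.

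The filter on low counts kept 40 of the 149 genes for testing: 9 constant genes (all but Ighg2b, Ighg2c and Igha), 28 kappa V genes, 3 lambda V genes and no heavy chain V gene. Of these 40, 30 reached the count limit in fewer than 4 libraries outside LN DT and so were kept with the help of LN DT libraries, a choice that favours genes high in LN DT. For 23 of these 30 the LN DT and LN PBS libraries still overlapped. Counts and medians over the 40 genes are descriptions for that reason.

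The question in the lymph node was what DT changes in the sorted cells. Ighg1 (IgG1) and Ighe (IgE), constant genes of switched antibodies, were present in every LN DT library and almost missing from LN PBS. Ighm was abundant in both groups. Ighg2b and Ighg2c were also scarce in LN PBS. In contrast, Ighg3 stood at 1.36 to 2.54 CPM in LN PBS, and Igha had 2 counts in LN DT and 12 in LN PBS. Ighg1 and Ighe rose by the test, and no immunoglobulin gene was called lower.

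Ighg1, at chr12:113325240-113330523 (GRCm38), had 150, 338, 553 and 165 CPM in LN DT replicates 1 to 4. In LN PBS replicates 1 to 4 it had 0, 0.121, 0.248 and 2.49 CPM. The groups did not overlap, and the lowest LN DT library stood far above the highest LN PBS library. The log2 fold change was 8.68 ± 1.46 (SE; adjusted p = 0.0251, edgeR quasi-likelihood test with Benjamini-Hochberg adjustment over 13940 genes).

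Ighe, at chr12:113271174-113273248, had 7.37, 318, 125 and 5.72 CPM in LN DT replicates 1 to 4, against 0.105, 0, 0 and 0 CPM in LN PBS. All 4 LN DT libraries were above all LN PBS libraries, with replicates 2 and 3 far above replicates 1 and 4. Summed counts were 3537 in LN DT and 1 in LN PBS. The ratio per scaled library size was 3981 (95% counting interval 714 to 157276; edgeR adjusted p = 0.00805). Intervals and floors of this kind cover counting error only.

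These 2 calls among 40 tested genes stand beside 0.0646% of all tested genes called higher in the same comparison. Both genes were kept for testing with the help of LN DT libraries, so nothing is read from their count against that share. Leaving out LN PBS replicate 1, 3 or 4 left 0 immunoglobulin genes called, leaving out LN PBS replicate 2 or LN DT replicate 2 or 3 left 1, leaving out LN DT replicate 4 gave 5, and with the mitochondrial share as a covariate there were 0. DESeq2 called 19 immunoglobulin genes higher. The share of all genes that DESeq2 called is not given here, so the 19 is not read as a result about these genes.

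Ighm (chr12:113418558-113422730), the first class that B cells make, had 312, 446, 606 and 411 CPM in LN DT, against 604, 461, 929 and 686 CPM in LN PBS. The groups overlapped, with a log2 fold change of -0.59 ± 0.38 (adjusted p = 0.577). Ighd, which is transcribed together with Ighm in naive B cells, had 69.6, 195, 206 and 43.4 CPM in LN DT, against 49.7, 43.7, 93.2 and 58.4 CPM in LN PBS. Its replicates 2 and 3 of LN DT were above LN PBS and its replicate 4 was below, and the log2 fold change was 1.07 ± 1.19 (adjusted p = 0.768).

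The remaining IgG genes did not pass or could not be tested. Ighg3 had 5.14, 19.9, 27.9 and 1.21 CPM in LN DT, against 1.68, 2.54, 1.36 and 2.04 CPM in LN PBS (log2 fold change 2.82 ± 1.41, adjusted p = 0.448). Ighg2c had 0.171, 1.06, 30.6 and 4.07 CPM in LN DT, against 0, 0, 0 and 0.679 CPM in LN PBS, so that replicate 3 supplied most of it. Ighg2b had 1.20, 0.396, 6.62 and 1.76 CPM in LN DT and no count in any LN PBS library. Its ratio was at least 30.4-fold, taking 3 counts over the group as the floor. Igha, the IgA gene, had 2 counts in LN DT and 12 in LN PBS, all 12 in replicate 3. Ighg2b, Ighg2c and Igha were below the filter and were not tested.

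**Figure D1:**
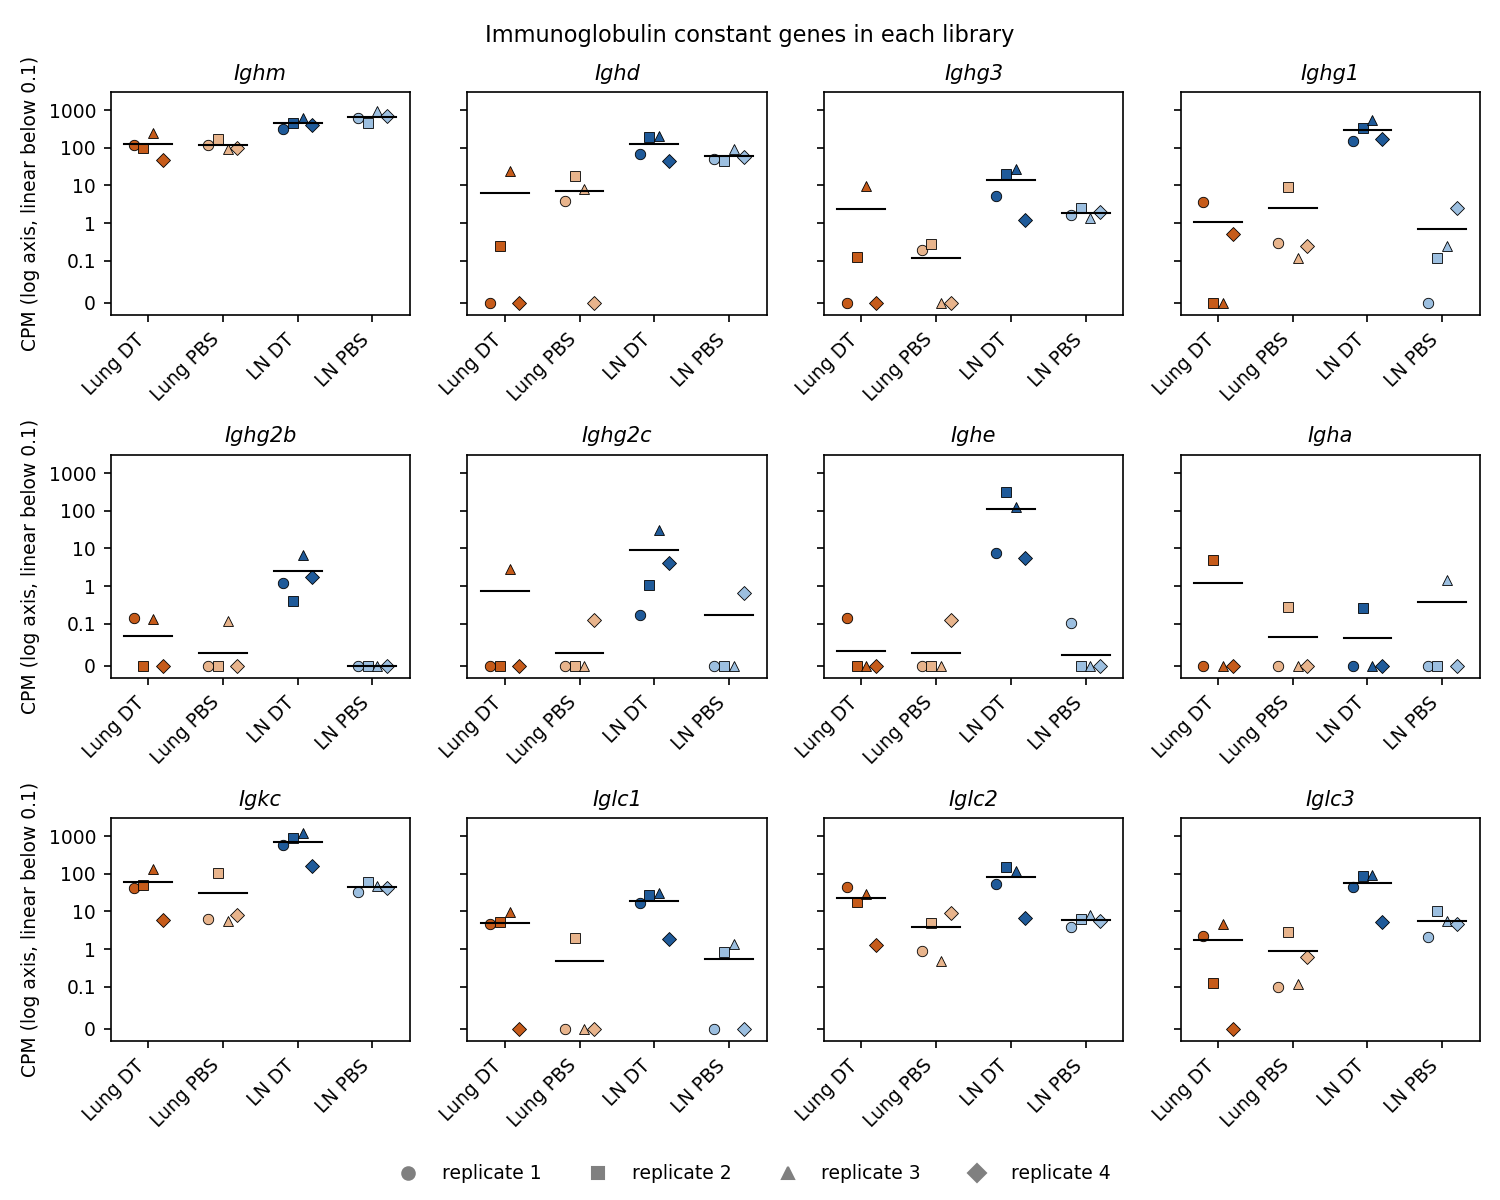
The 12 immunoglobulin constant genes in each of the 16 libraries, as CPM on a log axis that is linear below 0.1. Points are libraries (marker by replicate), bars are group means of n = 4. Ighg1 and Ighe stand above 5 CPM in all 4 LN DT libraries, while Ighm is present in every library of every group.

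The make-up of heavy chain classes was set out per kilobase of exon, so that genes of unequal length can be compared. The switched classes (the 4 IgG genes, Ighe and Igha) made up 24.3%, 50.05%, 43.3% and 22.9% of heavy chain constant counts per kilobase in LN DT replicates 1 to 4. In LN PBS they made up 0.212%, 0.395%, 0.220% and 0.575%. Without length scaling the group means were 39.3% in LN DT and 0.449% in LN PBS. The Ighg1 share was alike across LN DT, at 21.6%, 19.2%, 28.1% and 20.4%. The Ighe share was not, at 1.74%, 29.5%, 10.4% and 1.16%. Ighm held 62.0%, 34.9%, 42.4% and 69.8% in LN DT, against 92.3%, 91.0%, 90.7% and 91.7% in LN PBS. Exon lengths join the secreted and membrane forms of each gene, so a share depends on which form was present.

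Light chain constant genes were higher in most LN DT libraries than in LN PBS, without passing the test. Igkc, the only kappa constant gene (chr6:70726435-70726966), had 568, 901, 1228 and 163 CPM in LN DT replicates 1 to 4, against 32.5, 59.4, 46.8 and 41.3 CPM in LN PBS. Every LN DT library was above every LN PBS library, with replicate 4 the lowest of LN DT. The log2 fold change was 3.99 ± 0.98 with adjusted p = 0.142 in edgeR, and DESeq2 gave an adjusted p of 9.84e-04.

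The mouse has few lambda genes, and these are counted with less certainty because some are near copies of each other. Iglc2 and Iglc3 were identical at 95.3% of 450 aligned bases, and Iglc2 and Iglc1 at 69.5% of 446. The first 120 bases of each constant exon (GENCODE M21 transcripts on GRCm38, chromosome 16, minus strand) are shown to make that visible, with the bases that differ from Iglc2 in capitals, 7 in Iglc3 and 28 in Iglc1.
Iglc2: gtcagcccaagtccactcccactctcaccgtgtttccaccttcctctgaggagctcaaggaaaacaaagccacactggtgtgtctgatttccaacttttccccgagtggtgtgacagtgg
Iglc3: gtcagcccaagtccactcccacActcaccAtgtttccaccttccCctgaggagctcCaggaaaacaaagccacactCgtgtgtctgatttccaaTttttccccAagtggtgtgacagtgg
Iglc1: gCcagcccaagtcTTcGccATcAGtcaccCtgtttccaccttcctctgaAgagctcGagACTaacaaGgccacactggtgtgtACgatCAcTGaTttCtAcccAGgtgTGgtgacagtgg
A short read from Iglc2 or Iglc3 can match both, and how such reads were counted is not given in the sources used here.

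Iglc2 had 53.5, 150, 117 and 6.71 CPM in LN DT, against 4.00, 6.30, 8.30 and 5.66 CPM in LN PBS (log2 fold change 3.75 ± 1.00, adjusted p = 0.172). Iglc3 had 45.1, 89.8, 90.6 and 5.17 CPM in LN DT, against 2.10, 10.3, 5.58 and 4.64 CPM in LN PBS (3.35 ± 1.11, adjusted p = 0.252). In both genes replicates 1 to 3 of LN DT were above LN PBS and replicate 4 lay within its range. Iglc1 had 16.4, 28.0, 30.0 and 1.87 CPM in LN DT, against 0, 0.848, 1.36 and 0 CPM in LN PBS (5.09 ± 1.64, adjusted p = 0.238). Lambda genes made up 17.3%, 23.0%, 16.5% and 7.97% of light chain constant counts per kilobase in LN DT, against 15.5%, 23.8%, 24.7% and 20.1% in LN PBS. The lambda share thus overlapped between the groups except for LN DT replicate 4, which was lowest.

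The balance between heavy and light chains differed between the LN groups. Heavy over light constant counts per kilobase stood at 0.207, 0.308, 0.274 and 0.938 in LN DT replicates 1 to 4, against 4.81, 1.83, 4.64 and 4.09 in LN PBS. All LN DT libraries had less heavy than light chain RNA on this scale, and all LN PBS libraries had more. With Ighm alone in the numerator the ratio was 0.128, 0.108, 0.116 and 0.654 in LN DT, against 4.43, 1.67, 4.21 and 3.75 in LN PBS. In lung the ratio of all heavy to light genes was 0.381, 0.406, 0.438 and 1.97 with DT, against 4.62, 0.504, 4.71 and 1.69 with PBS, where the groups overlap. These ratios are sums over selected genes and carry no test.

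The number of V counts per constant count also differed by chain. Heavy chain V genes gave 3.68, 5.91, 6.83 and 4.79 counts per 100 heavy constant counts in LN DT, against 1.11, 0.430, 0.447 and 0.287 in LN PBS. Kappa V genes gave 51.5, 45.6, 50.2 and 53.8 counts per 100 Igkc counts in LN DT, against 70.9, 44.7, 47.1 and 49.0 in LN PBS. Lambda V genes gave 50.1, 40.2, 53.1 and 60 counts per 100 lambda constant counts in LN DT, against 10.3, 6.94, 6.50 and 13.2 in LN PBS. So heavy and lambda V counts per constant count did not overlap between the LN groups, whereas kappa V counts per Igkc count did. In LN PBS the heavy constant counts, 91.3% of them Ighm on average (n = 4), came with 143 heavy V counts in all, beside 25321 heavy constant counts. In LN DT there were 1864 heavy V counts beside 31824. V reads that cross a joint or differ from the germline by mutation may fail to align, and the reference genome is that of another strain than FVB/N, so these are minimum V counts and their part in the ratios was not tested.

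**Figure D2:**
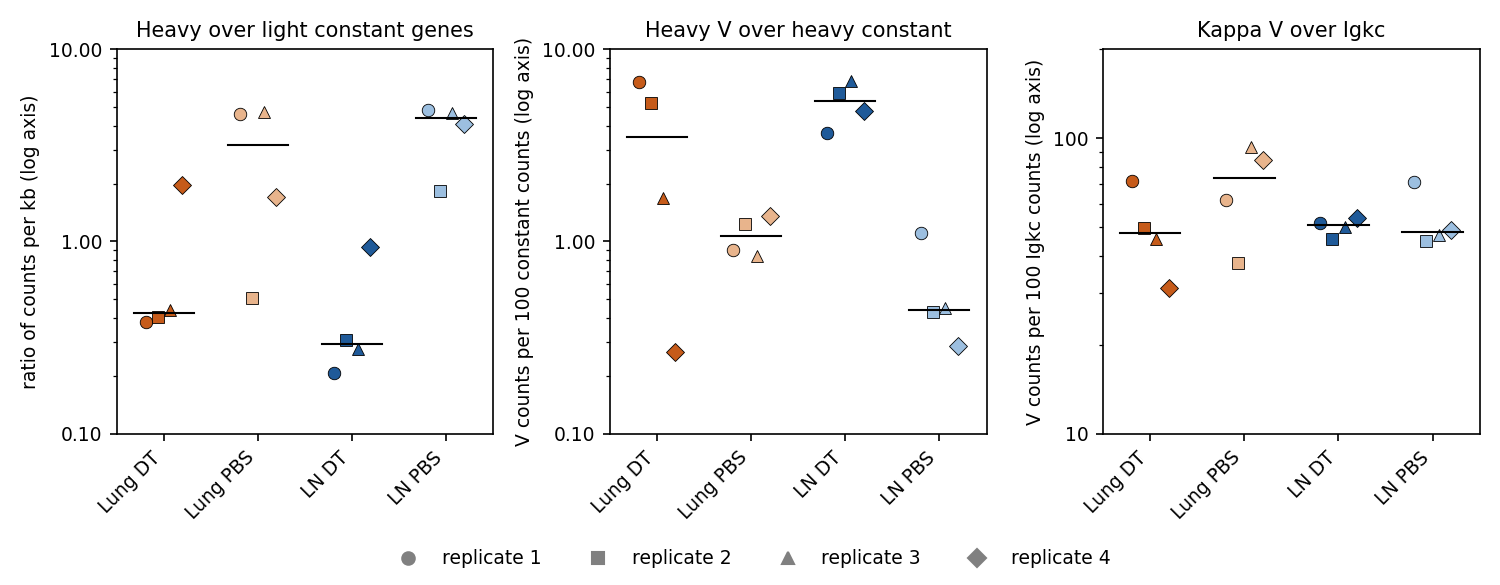
Chain balance in each library, on log axes: heavy over light constant counts per kilobase (left), heavy V counts per 100 heavy constant counts (middle) and kappa V counts per 100 Igkc counts (right). Points are libraries, bars are group medians. In LN DT the left ratio is below 1 and in LN PBS above 1 in all 4 libraries of each, while the kappa ratio overlaps.

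V genes were counted in larger number in LN DT. Replicates 1 to 4 had 2166, 4522, 7054 and 1147 V counts over 96, 129, 131 and 84 detected V genes in LN DT, against 294, 249, 223 and 210 V counts over 31, 37, 52 and 39 genes in LN PBS. Depth sets part of that difference. At a common 200 V counts the expected number of V genes was 51.2, 58.2, 54.0 and 43.5 in LN DT, against 29.8, 35.0, 50.03 and 38.5 in LN PBS. On this scale the groups overlapped, since LN PBS replicate 3 was above LN DT replicate 4. Both the detected and the expected numbers cover only V genes chosen by their total count. LN DT gave 14889 counts of these V genes and LN PBS 976, so the choice leans towards LN DT in both numbers. No single V gene dominated LN DT replicates 1 to 3, where the leading gene held 13.4% (Igkv6-15), 8.27% (Iglv3) and 10.6% (Iglv1) of V counts. In replicate 4 Igkv4-86 held 28.1%. The leaders in LN PBS replicates 1 to 4 were Igkv6-32 with 25.2%, Igkv3-7 with 10.4%, Igkv14-111 with 14.8% and Igkv19-93 with 14.8%.

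Most of the V reads were kappa. In LN DT 10740 V counts were kappa, 2275 lambda and 1864 heavy, and in LN PBS 795, 36 and 143. The family Igkv4, with 21 members, held 17.5% of V counts in LN DT and 6.66% in LN PBS. Igkv6 with 8 members held 14.3% in LN DT and 17.8% in LN PBS, and Igkv3 with 7 members 3.18% in LN DT and 15.4% in LN PBS. The 29 members of Ighv1, the largest heavy chain family, held 8.36% in LN DT and 6.97% in LN PBS.

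The V genes with most reads in LN DT are shown by their last 60 germline bases (GENCODE M21 transcripts, GRCm38), with 2 genes that stood almost wholly in 1 library, Igkv4-86 and Igkv8-18. Capitals run from the codon of the conserved cysteine to the end of the segment, the germline start of the third complementarity-determining region, which is where antibodies differ most.
Iglv1: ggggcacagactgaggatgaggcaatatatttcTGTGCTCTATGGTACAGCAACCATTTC
Igkv6-15: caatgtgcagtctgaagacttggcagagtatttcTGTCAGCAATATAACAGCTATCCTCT
Igkv10-96: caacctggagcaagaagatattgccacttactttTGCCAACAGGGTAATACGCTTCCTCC
Igkv6-23: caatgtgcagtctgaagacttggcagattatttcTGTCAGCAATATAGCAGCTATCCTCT
Iglv3: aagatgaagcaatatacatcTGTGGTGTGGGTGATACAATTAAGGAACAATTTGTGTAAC
Igkv4-86: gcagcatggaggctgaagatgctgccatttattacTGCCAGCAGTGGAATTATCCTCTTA
Igkv8-18: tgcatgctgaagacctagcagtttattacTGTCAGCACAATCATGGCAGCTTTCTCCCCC
The kappa segments carry the codon of glutamine after the cysteine, and Igkv6-15 and Igkv6-23 were alike at 94.5% of 347 aligned bases. Of 19 V genes compared with all others, 9 had another V gene at 95% identity or more, among them Iglv1 with Iglv2 (96.7%) and Igkv8-18 with Igkv8-26 (98.1%), so the split of counts inside such pairs is uncertain.

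Iglv1 had 43.2, 46.0, 90 and 6.60 CPM in LN DT, against 0, 1.21, 0.248 and 0.226 CPM in LN PBS (log2 fold change 6.75 ± 1.52, adjusted p = 0.109). Igkv6-15 had 49.7, 3.57, 69.4 and 1.54 CPM in LN DT, against 1.89, 0, 0.744 and 0 CPM in LN PBS (5.51 ± 1.73, adjusted p = 0.228). Iglv1 was higher in every LN DT library, and in Igkv6-15 replicate 4 of LN DT lay inside the LN PBS range. Igkv10-96 had 2.40, 22.6, 86.5 and 8.92 CPM in LN DT, against 2.00, 0.121, 0.496 and 0.113 CPM in LN PBS (5.42 ± 1.55, adjusted p = 0.205). Igkv6-23 had 6.68, 3.57, 77.4 and 1.98 CPM in LN DT, against 0.421, 0.242, 0.744 and 2.26 CPM in LN PBS, so that replicate 3 held 86.4% of its LN DT level. Iglv3 had 3.94, 49.4, 30.7 and 0.991 CPM in LN DT, against 0.631, 0, 0.744 and 1.13 CPM in LN PBS. Igkv14-111 was more even, at 21.8, 23.6, 30.1 and 5.61 CPM in LN DT, against 2.42, 1.33, 4.09 and 2.49 CPM in LN PBS, and its groups did not overlap (2.97 ± 0.75, adjusted p = 0.150). No V gene passed the test between LN DT and LN PBS. Of the 40 tested immunoglobulin genes 27 had an unadjusted p under 0.05, all higher, beside 8.29% of all tested genes higher and 3.52% lower. Since most of the 40 were kept with the help of LN DT libraries, nothing is read from that count against these shares.

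Which V genes were read differed from library to library. Of 54 V genes with 50 or more counts in LN DT, 38 had counts in all 4 libraries and 40 had at least 50% of their LN DT level in 1 library. Replicate 1 led for 6 of the 54 genes, replicate 2 for 20, replicate 3 for 26 and replicate 4 for 2. At least 90% stood in 1 library for 5 genes: Igkv8-18 (all 257 counts in replicate 2), Igkv1-99, Ighv5-9, Igkv4-63 and Igkv5-48. Igkv4-86 had 89.6% of its level in replicate 4.

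**Figure D3:**
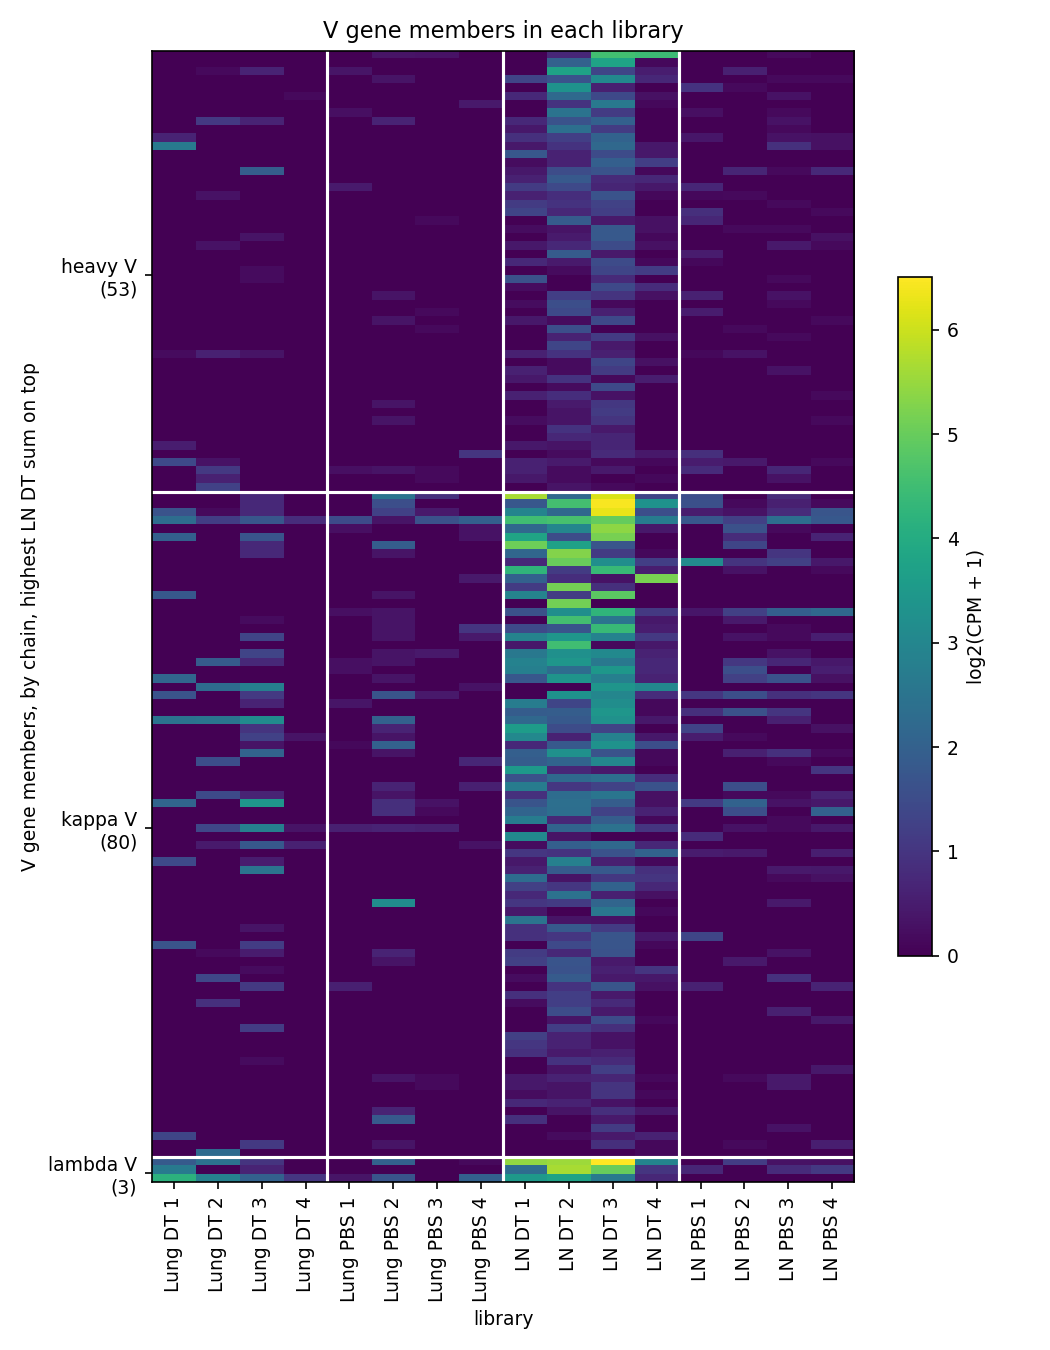
Level of 136 V genes (rows, by chain, ordered by their sum in LN DT; Gm42543 is left out) in the 16 libraries (columns), as log2(CPM + 1). The LN DT block is filled widely in replicates 2 and 3 and thinly in replicate 4, and different rows are bright in different LN DT libraries.

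Among the 40 tested genes, 11 were higher in every LN DT library than in any LN PBS library, beside 5.05% of all tested genes. Over all 149 genes this held for 33, and 0 were lower in every one. The share over all 49671 genes was not computed, so nothing is read from the 33. The log2 fold change was above 0 in 39 of the 40, with a median of 4.27, beside a median of 0.08 over all tested genes. Since most of these genes were selected and kept with the help of LN DT, their counts restate in part how they were chosen.

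Companion genes of antibody-secreting cells and of B cells differed among the LN DT libraries. Jchain had 229, 275, 258 and 39.7 CPM in LN DT replicates 1 to 4, against 0, 0.121, 0.124 and 0 CPM in LN PBS. It rose without overlap, with 5932 counts in LN DT and 2 in LN PBS, which is 3338-fold per scaled library size (95% counting interval 924 to 27570; edgeR adjusted p = 0.0244). Mzb1, a chaperone of immunoglobulin assembly, had 9.42, 67.5, 53.5 and 6.60 CPM in LN DT, against 5.89, 2.18, 2.85 and 8.71 CPM in LN PBS (adjusted p = 0.334).

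Of the 21 genes of the B cell list, 19 were above every LN PBS library in LN DT replicate 2 and 19 in replicate 3, 12 in replicate 1 and 4 in replicate 4. Cd79a, a signalling chain of the B cell receptor, had 17.3, 129, 115 and 18.9 CPM in LN DT, against 17.4, 32.7, 18.6 and 22.5 CPM in LN PBS. Ms4a1, which encodes CD20, had 48.3, 188, 196 and 21.9 CPM in LN DT, against 16.6, 21.0, 27.5 and 18.9 CPM in LN PBS. In replicates 2 and 3 both stood above LN PBS, whereas in replicate 4 both lay within its range. Neither passed the test (log2 fold changes 1.62 ± 0.95 for Cd79a and 2.44 ± 1.20 for Ms4a1, adjusted p = 0.532 and 0.440). Cd22, an inhibitory co-receptor of B cells, had 52.8, 125, 166 and 64.5 CPM in LN DT, against 20.3, 12.6, 11.4 and 10.97 CPM in LN PBS. Like Ighg1, Igkc and Jchain it was above LN PBS in all 4 LN DT libraries, but it did not pass (2.88 ± 0.92, adjusted p = 0.236). This held for 3 of the 21 list genes. In replicate 4, 13 of the 21 lay within the LN PBS range and 4 below it.

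**Figure D4:**
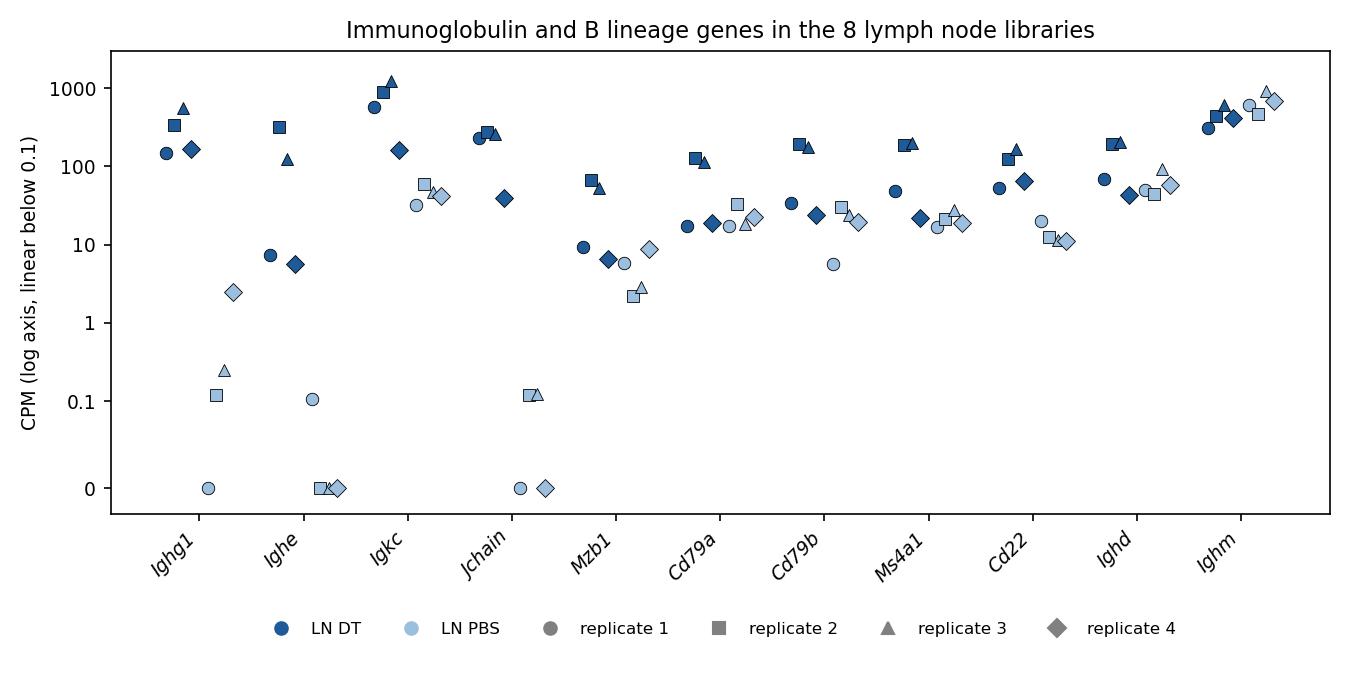
Immunoglobulin genes and genes of the B lineage in the 8 LN libraries, as CPM on a log axis that is linear below 0.1. Points are libraries, LN DT left of LN PBS for each gene, marker by replicate. Ighg1, Ighe, Igkc and Jchain are above LN PBS in every LN DT library, as is Cd22, whereas Cd79a is above it in replicates 2 and 3 and Ms4a1 in replicates 1 to 3.

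Of the plasma cell list (20 genes, 17 tested) 1 gene, Jchain, rose in LN DT and 15 of the 17 had a log2 fold change above 0, with a median of 0.62. Its summed level was 2002 to 2714 CPM in LN DT and 1479 to 1766 CPM in LN PBS, with no list gene at 0 in LN DT and Tnfrsf17 at 0 in LN PBS. Part of that sum came from genes that were abundant in all groups, such as Xbp1, the secretory transcription factor of plasma cells, with 170 to 374 CPM in LN DT and 239 to 315 CPM in LN PBS. Sdc1, which encodes the plasma cell surface protein CD138, had 0, 0, 1.68 and 0.110 CPM in LN DT, against 0, 0, 2.97 and 0 CPM in LN PBS. Of the B cell list 0 of 21 tested genes passed, 20 were above 0 and the median was 2.38. Its sum was 619, 1954, 2036 and 655 CPM in LN DT replicates 1 to 4, against 701 to 767 CPM in LN PBS, so replicates 1 and 4 were below LN PBS and replicates 2 and 3 above it. The part of B lineage RNA, of depth and of the mitochondrial share in the immunoglobulin results was not tested.

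Genes of class switching did not pass the test. Rgs13, a germinal centre regulator of G protein signalling, had 7.02, 3.83, 3.49 and 0.881 CPM in LN DT and no count in LN PBS (adjusted p = 0.227). Of the germinal centre and switch list 0 of 12 tested genes passed and 7 were above 0, with a median of 0.30. Il4, whose product directs switching to IgG1 and IgE in the mouse, had 5.83, 2.24, 3.01 and 0.770 CPM in LN DT, against 0, 0.121, 0 and 0.113 CPM in LN PBS. All LN DT libraries were above all LN PBS libraries, and the gene did not pass (adjusted p = 0.261).

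IgE binds basophils and mast cells, and IgG binds NK cells through the receptor that includes the product of Fcgr3. Fcer1a, the chain of the high-affinity IgE receptor that holds IgE, had 0, 0.528, 0 and 0 CPM in LN DT and no count in LN PBS, and Ms4a2, another chain of that receptor, had none in either. Of the basophil and mast cell list 5 of 12 genes could be tested, and 0 passed. In LN DT 3 of the 12 were at 0 (Gata2, Ms4a2 and Prss34), against 7 in LN PBS, where Cd200r3, Fcer1a, Mcpt8 and Tpsb2 were at 0 as well. Mcpt8, a basophil protease, had 0.514, 0.924, 0 and 0.110 CPM in LN DT and stayed at 0 in all LN PBS libraries. Its 11 summed counts make a level at least 4.13-fold higher with a floor of 3 counts over the group. The list summed to 312 to 588 CPM in LN DT and 284 to 580 CPM in LN PBS. Fcgr3 had 111, 69.2, 77.5 and 126 CPM in LN DT, against 106, 91.7, 162 and 140 CPM in LN PBS, which overlap (log2 fold change -0.38 ± 0.35, adjusted p = 0.706). Of the Fc receptor list 0 of 9 tested genes passed.

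Other lists in LN gave no call either: 0 of 10 tested genes for plasmacytoid dendritic cells, 0 of 12 for T cells, 0 of 11 for macrophages and monocytes, 0 of 5 for neutrophils, 0 of 8 for the NK gate and 0 of 1 for recombination and early B cells. The plasmacytoid list had a median log2 fold change of 1.37. Its gene Siglech had 2.57, 79.0, 198 and 0.110 CPM in LN DT, against 1.26, 2.30, 0 and 3.28 CPM in LN PBS (adjusted p = 0.261), so that it too was high in replicates 2 and 3.

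In lung the same question was asked of DT against PBS. The sorted lung cells had little switched immunoglobulin RNA with or without DT. Switched classes made up 2.46%, 3.44%, 4.07% and 0.776% of heavy chain constant counts per kilobase in lung DT replicates 1 to 4. In lung PBS they made up 0.304%, 3.54%, 0.173% and 0.501%, so the groups overlapped. No immunoglobulin gene passed among the 40 tested, beside 0.108% of all tested genes. At an unadjusted p under 0.05 there were 7 higher and 0 lower in edgeR, beside 7.66% of all tested genes higher and 7.06% lower. DESeq2 called 1, and its share of all genes is not given here. The log2 fold change was above 0 in 27 of 40, with a median of 1.21 beside 0.09 over all tested genes. For 0 of the 40 did all lung DT libraries lie above all lung PBS libraries. The share of all tested genes without such overlap was not computed, so nothing is read from that 0.

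Ighm had 119, 99.3, 242 and 48.7 CPM in lung DT replicates 1 to 4, against 116, 175, 92.1 and 100.3 CPM in lung PBS. Igkc had 42.8, 49.8, 137 and 5.89 CPM in lung DT, against 6.45, 102, 5.44 and 8.07 CPM in lung PBS (log2 fold change 0.99 ± 0.89, adjusted p = 0.627). In both genes the groups overlapped. Ighg1 had 3.73, 0, 0 and 0.524 CPM in lung DT, against 0.298, 9.16, 0.121 and 0.248 CPM in lung PBS, with 30 and 39 summed counts. Ighe had 1 count in each lung group. Ighg3 had 69 summed counts in lung DT and 3 in lung PBS, Igha 39 and 1, Ighg2c 21 and 1, and Ighg2b 2 and 1. Lung DT replicate 3 held 68 of the Ighg3 counts and all 21 of Ighg2c, and replicate 2 held all 39 of Igha.

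Lambda genes varied widely among lung libraries. Iglc2 had 44.9, 17.7, 29.4 and 1.31 CPM in lung DT, against 0.894, 5.00, 0.483 and 9.19 CPM in lung PBS (log2 fold change 2.60 ± 0.97, adjusted p = 0.242). Iglv2 was the leading V gene of lung DT, at 17.1, 6.14, 3.05 and 1.05 CPM, against 0.298, 2.22, 0 and 2.98 CPM in lung PBS (2.33 ± 1.24, adjusted p = 0.398). Its summed counts were 198 in lung DT, 35 in lung PBS, 206 in LN DT and 0 in LN PBS. Lambda genes made up 52.5%, 30.4%, 23.4% and 16.2% of light chain constant counts per kilobase in lung DT, against 12.2%, 8.85%, 9.37% and 51.9% in lung PBS, on 55 to 1303 light chain counts per library. The spread within each lung group was as wide as the range between them.

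B lineage genes did not share 1 pattern over the lung libraries. Cd79a had 2.73, 22.0, 17.2 and 1.31 CPM in lung DT, against 1.69, 25.5, 1.21 and 2.98 CPM in lung PBS, and was highest in lung DT replicates 2 and 3 and lung PBS replicate 2. Jchain had 0.143, 0.501, 7.48 and 0.131 CPM in lung DT, against 0.596, 12.5, 0 and 0 CPM in lung PBS, and was highest in lung DT replicate 3 and lung PBS replicate 2. Of the B cell list 0 of 21 tested genes passed in lung, with sums of 217, 535, 578 and 390 CPM in lung DT and 491, 719, 508 and 467 CPM in lung PBS, which overlap. For the plasma cell list 0 of 17 passed, with sums of 1190 to 2211 CPM in lung DT and 1519 to 1693 CPM in lung PBS, and Derl3 and Tnfrsf17 were at 0 in lung DT.

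Whether the DT difference in LN differed from that in lung was tested by the interaction. No immunoglobulin gene passed, beside 0.00717% of all tested genes. There were 13 higher and 0 lower at an unadjusted p under 0.05, beside 2.88% of all tested genes higher and 1.33% lower. DESeq2 called 3. Most of the tested immunoglobulin genes were kept with the help of LN DT libraries, which favours higher values here. Nothing is read from these counts against those shares for that reason. For Ighg1 the difference of log2 fold changes was 9.57 ± 1.91 (adjusted p = 0.268), and for Igkc 3.00 ± 1.27 (adjusted p = 1.00). The LN and lung responses of these genes are therefore not shown to differ by this test.

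Between tissues, the comparison asked how immunoglobulin RNA of the sorted cells differed with and without DT. Among controls Ighm alone was called. It had 116, 175, 92.1 and 100.3 CPM in lung PBS, against 604, 461, 929 and 686 CPM in LN PBS, and fell by 2.47 ± 0.40 on the log2 scale (adjusted p = 0.00183), without overlap. This 1 gene of 40 stands beside 0.904% of all tested genes called lower in lung PBS. Ighd had 3.77, 17.5, 7.98 and 0 CPM in lung PBS, against 49.7, 43.7, 93.2 and 58.4 CPM in LN PBS, and did not pass (adjusted p = 0.219). Of the B cell list 0 of 21 genes passed here, and the sums were 467 to 719 CPM in lung PBS and 701 to 767 CPM in LN PBS.

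Among DT libraries 13 immunoglobulin genes were lower in lung and 0 higher, beside 2.78% of all tested genes called lower. Of these 13, 9 were kept for testing with the help of LN DT libraries, so nothing is read from their count against that share. They were the constant genes Ighg1, Ighm, Ighe, Iglc3 and Igkc and the kappa V genes Igkv6-32, Igkv10-96, Igkv6-15, Igkv12-41, Igkv14-111, Igkv12-44, Igkv8-19 and Igkv19-93. For 18 of the 40 tested genes all lung DT libraries lay below all LN DT libraries, beside 6.08% of all tested genes, with the same limit. Ighg1 had 3.73, 0, 0 and 0.524 CPM in lung DT, against 150, 338, 553 and 165 CPM in LN DT (log2 fold change -8.16 ± 1.43, adjusted p = 0.00263). Ighm had 119, 99.3, 242 and 48.7 CPM in lung DT, against 312, 446, 606 and 411 CPM in LN DT (-1.80 ± 0.39, adjusted p = 0.0108). Igkc had 42.8, 49.8, 137 and 5.89 CPM in lung DT, against 568, 901, 1228 and 163 CPM in LN DT (-3.60 ± 0.96, adjusted p = 0.0316). Iglc3 had 2.30, 0.125, 4.57 and 0 CPM in lung DT, against 45.1, 89.8, 90.6 and 5.17 CPM in LN DT (-5.04 ± 1.21, adjusted p = 0.0180). In all 4 genes the groups did not overlap. Ighe had 1 count in lung DT and 3537 in LN DT (adjusted p = 2.65e-04).

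Several V genes were at 0 in lung DT. Igkv12-44 had no count there and 421 in LN DT, a level at least 136-fold lower in lung DT with a floor of 3 counts over the group. Igkv6-32 had no count in lung DT and 325 in LN DT (at least 105-fold lower), and Igkv19-93 none and 235 (at least 75.8-fold lower). Igkv12-41 had none and 153 (at least 49.4-fold lower), and Igkv8-19 none and 119 (at least 38.4-fold lower). These folds sum over LN DT libraries that were uneven. Replicate 3 held 79.4% of the LN DT level of Igkv12-44, 61.1% of Igkv19-93, 48.2% of Igkv12-41 and 63.4% of Igkv8-19. Replicate 2 held 75.5% of that of Igkv6-32. In LN DT replicate 4 these genes had 1 to 12 counts each. All of them were kept for testing with the help of LN DT libraries. Iglv2 had 198 summed counts in lung DT and 206 in LN DT, a ratio of 0.993 (95% counting interval 0.813 to 1.21, counting error only). Its libraries spread from 1.05 to 17.1 CPM in lung DT and from 0.660 to 12.4 CPM in LN DT, so an equal level is not shown.

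The count of 13 was 5 without LN DT replicate 3, 21 without lung DT replicate 1 and 28 in DESeq2. Shares of all genes called in these settings are not given here. With the replicate number as a block in the 8 DT libraries alone, 8 of the 13 genes were tested and all 8 passed, and Ighd, at 0, 0.250, 24.4 and 0 CPM in lung DT against 69.6, 195, 206 and 43.4 CPM in LN DT, passed with adjusted p = 0.0269 (0.0636 without the block). Genes of other cells differed between the same groups. Jchain, Pou2af1 and Cd22 of the B lineage were called lower in lung DT. Of the other lists, 3 of 11 macrophage genes and 3 of 5 neutrophil genes were called higher, beside 554 of all 13940 tested genes. The B cell list summed to 217 to 578 CPM in lung DT and 619 to 2036 CPM in LN DT, the macrophage list to 143 to 4071 CPM in lung DT and 114 to 270 CPM in LN DT, and the neutrophil list to 8.78 to 299 CPM in lung DT and 0.660 to 5.53 CPM in LN DT. Their part in the immunoglobulin differences was not tested.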

How the data were processed

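RNA of sorted mouse NK cells was measured in 16 libraries, 4 per group by tissue and treatment; the series' design text gives them as biological replicates. The submitters' processing notes name HISAT2, HTSeq and GRCm38, without versions of the tools. The authors deposited raw counts per gene for 49671 genes, and all 16 columns were used. The members, the 11 gene lists and the tests were chosen with earlier results of these data known.

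Genes were kept with filterByExpr of edgeR by group (minimum count 10, minimum total 15), which left 13940. TMM-scaled counts were fitted with the quasi-likelihood method of edgeR 4.0.16 (R 4.3.3) as 4 group means with 12 residual degrees of freedom (common biological coefficient of variation 0.621). Two-sided F tests were adjusted over all tested genes, and an adjusted p under 0.05 is a call. Log2 fold changes carry the standard error (SE) implied by the F statistic. Total counts of 3929560 to 10744934 set the precision. Genes with 3 or fewer summed counts in a group are given as ratios of summed counts with exact 95% intervals, or against a floor of 3 counts. Exon lengths and sequences come from GENCODE M21 transcripts of GRCm38; alignments used Biopython 1.88. All 149 members had a length. The code was tested on simulated data.

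Named genes are every constant gene, every V gene called in any comparison, the 5 V genes with most scaled counts per group, 13 companion genes and the 2 list members of smallest p in LN; Igkv8-18, Igkv4-86 and the other V genes held by 1 library, and list genes named for being at 0 or called between tissues, were picked after their values were seen. A few genes of this rule are not reported here. Same-numbered LN DT and lung DT libraries deviated together, with correlations of 0.184 to 0.412 in all 4 pairs. In 3 of the 4 the same-numbered library was the closest match. Other pairs of groups gave -0.314 to 0.207, so the ranges overlap and pairing of the DT libraries is possible but not settled. The main tests took all libraries as unpaired, and a block by number in the DT libraries was an alternative. Alternatives were other scalings, no filter, robust=FALSE, DESeq2 1.42.0, a replicate block, a mitochondrial covariate and leaving out each library.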

Additional observations from a re-analysis of the deposited data

Results flagged for a closer look

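In a group of 4, a library was singled out where its gap to the nearest other library exceeded Dixon's 95% critical share of the group's range, which chance gives in about 1 in 20 groups. Lung DT replicate 3 had the high value for Ighd (24.4 CPM) and for Ighg3 (9.42 CPM). LN DT replicate 3 had 30.6 CPM of Ighg2c. Lung PBS replicate 2, the library with fewest counts, was high for Igkc (102 CPM), for all light chain constant genes (112 CPM) and for all 149 genes together (361 CPM). The lambda share of light chain constant counts per kilobase was 51.9% in lung PBS replicate 4, on 144 light chain counts. The ratio of heavy to light constant counts per kilobase was 1.97 in lung DT replicate 4 and 0.938 in LN DT replicate 4, the highest of their groups. Kappa V counts per 100 Igkc counts reached 70.9 in LN PBS replicate 1.

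Rows outside the selection also held immunoglobulin reads. The J segments averaged 7.88 CPM in LN DT against 3.48 CPM in LN PBS, and 0.804 CPM in lung DT against 0.557 CPM in lung PBS. The V pseudogenes averaged 8.67 CPM in LN DT against 1.22 CPM in LN PBS, and 1.24 CPM in lung DT against 0.231 CPM in lung PBS (n = 4 each). J segment counts overlapped between the LN groups, at 43, 59, 127 and 10 in LN DT replicates 1 to 4 and 36, 19, 44 and 21 in LN PBS. Pseudogene counts were 26, 64, 179 and 2 in LN DT and 17, 9, 8 and 9 in LN PBS.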

How the results depend on the processing

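The count of called immunoglobulin genes between LN DT and LN PBS (2) was 1 with a replicate block, 0 with the mitochondrial covariate and 19 in DESeq2, and 0 to 5 when libraries were left out in turn. Between lung DT and LN DT (13) it was 28 in DESeq2 and 5 to 21 with libraries left out. Between lung PBS and LN PBS (1) it was 3 with no gene filter, 4 in DESeq2, 1 to 3 with libraries left out and 3 without both DT libraries numbered 1, a setting added after seeing the data. DESeq2 gave 1 in lung and 3 for the interaction, and both counts were 0 to 0 with libraries left out. Shares of all genes called under the alternatives are not given here, so these counts are not set against the edgeR shares. With the mitochondrial covariate the log2 fold changes between LN DT and LN PBS turned to -0.38 for Ighg3 and -0.52 for Ighd. The cause of these changes was not tested. Adjusted p between LN DT and LN PBS ran from 2.71e-06 to 0.200 for Ighe (past 0.05 in 21 of 25 alternatives) and from 9.76e-05 to 0.200 for Ighg1 (16 of 25). Both calls of Ighm between tissues held in all alternatives run. By the check used, pairing by replicate number was taken as possible in the DT groups alone, and the block moved no other count of calls by over 1.5 times. A limit of 50 counts left 77 of the 149 genes. Low counts limit heavy chain V genes, of which none could be tested.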
